A study of Mus musculus with 9 samples.

Results

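The secreted glycoprotein Reelin, its 2 receptors and the adaptor that acts inside the cell were followed in fibroblasts, in fibroblasts converted toward interneurons and in cortical interneurons. The 4 genes, Reln, Vldlr, Lrp8 and Dab1, were taken by symbol from the 37224 genes of the deposited count table. All 4 passed the filter on low counts, as did 18085 genes in all.

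Reelin is laid down in the marginal zone of the developing cortex by Cajal-Retzius cells, and later by subsets of GABAergic interneurons. It binds the VLDL receptor (Vldlr) and the apolipoprotein E receptor ApoER2 (Lrp8) on migrating neurons. Binding leads Src-family kinases to phosphorylate Dab1, which then recruits Crk-type adaptors and PI3 kinase. Mice without Reelin, without Dab1 or without both receptors share misplaced cortical layers.

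The study compared 3 groups of 3 libraries, all labelled as C57BL/6. MEF libraries were primary mouse embryonic fibroblasts at passage 0 from E13.5 embryos. Their labels also mention a shift to neuronal inducing medium without saying whether it came before RNA extraction. iGABA libraries were cells reprogrammed from such fibroblasts, taken after 14 days in vitro, of which 2 were in fibroblast medium. The labels used here do not name the delivered factors. GAD67 libraries were GFP-positive interneurons from the cortex at E18.5, with GFP reporting the GABA-synthesising enzyme GAD67 (Gad1). Sorting on GFP was used for iGABA and GAD67 cells, while MEF cells went unsorted. Separate cultures or animals are not named for the libraries of a group. The p-values therefore measure only how these samples vary, possibly for technical reasons.

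Library totals ran from 27501521 to 38975523 counts. Levels are given as CPM, reads of a gene scaled to library totals with TMM factors. Where a gene has 0 reads in a library, up to 3 remain possible, or 0.0717 to 0.110 CPM (counting error only). Libraries of a group correlated at r = 0.989 to 0.995 in log2 CPM, taken over genes that are no independent replicates. Marker lists were read beside the labelled cell types. The 9 interneuron genes, Gad1 among them, summed to 9.12 to 10.45 CPM in MEF, 680.5 to 693 CPM in iGABA and 4583 to 4806 CPM in GAD67 libraries. Gad1 is the gene reported by GFP in GAD67 cells, so its level in cells sorted on GFP is no independent check. Whether any listed gene was itself delivered to iGABA cells is not known from the labels used here. Counts per gene do not separate delivered copies from the cell's own. Dlx1 and Gad1 led in GAD67 cells at means of 1482 and 745 CPM. In iGABA cells Gad1 stood at 405 CPM, Dlx1 at 77.4 CPM and the vesicular GABA transporter Slc32a1 at 2.825 CPM. The 8 fibroblast genes summed to at least 78640 CPM in MEF and at most 859.9 CPM in iGABA libraries. In these bulk samples, fewer cells of a type and less RNA per cell cannot be told apart.

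Reln (ENSMUSG00000042453) lies on the minus strand of mm10 chr5:21884454-22344702 and is counted over 66 exon blocks. Dab1 (ENSMUSG00000028519) spans chr4:103619359-104744844 on the plus strand in 25 blocks. Lrp8 (ENSMUSG00000028613) lies on the same chromosome and strand at chr4:107802261-107876840 in 24 blocks. Vldlr (ENSMUSG00000024924) occupies chr19:27216484-27254231, plus strand, in 19 blocks. Only Reln shares exonic bases with another gene of the table, 246 bases with Gm10475 on the opposite strand, and that gene had at most 6 counts in any library.

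The promoters of Reln and Dab1 are shown because these 2 genes moved furthest in iGABA cells, in opposite directions. The windows run from 250 bases before to 50 bases after a start site, 5′ to 3′ on the gene's strand, from RefSeq on GRCm38.p6, a patch of the mm10 assembly. Capitals mark matches to GGGCGG, the GC box bound by Sp1-type factors, on either strand. Dab1 has 2 annotated start sites in that table, and counts per gene do not say which was used.

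Reln, chr5:22344656-22344955, minus strand: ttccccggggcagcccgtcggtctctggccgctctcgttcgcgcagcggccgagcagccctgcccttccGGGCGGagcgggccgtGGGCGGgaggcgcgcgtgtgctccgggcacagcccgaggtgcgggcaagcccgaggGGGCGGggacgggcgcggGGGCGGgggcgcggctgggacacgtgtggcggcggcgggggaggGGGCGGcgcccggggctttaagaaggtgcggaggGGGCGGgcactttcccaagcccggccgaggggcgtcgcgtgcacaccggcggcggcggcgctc
Dab1, upstream start, chr4:103619250-103619549, plus strand: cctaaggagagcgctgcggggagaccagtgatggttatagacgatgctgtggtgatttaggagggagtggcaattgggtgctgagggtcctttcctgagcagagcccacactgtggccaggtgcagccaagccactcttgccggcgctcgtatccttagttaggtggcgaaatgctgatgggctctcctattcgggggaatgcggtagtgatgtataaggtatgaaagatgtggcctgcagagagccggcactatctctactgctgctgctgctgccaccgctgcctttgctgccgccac
Dab1, downstream start, chr4:104367288-104367587, plus strand: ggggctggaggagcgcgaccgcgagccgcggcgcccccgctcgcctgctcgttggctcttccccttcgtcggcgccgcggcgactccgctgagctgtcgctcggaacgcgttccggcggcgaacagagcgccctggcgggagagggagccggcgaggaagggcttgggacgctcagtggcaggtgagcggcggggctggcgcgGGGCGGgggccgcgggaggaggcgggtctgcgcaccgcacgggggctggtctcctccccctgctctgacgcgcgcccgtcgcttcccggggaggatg

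The Reln window held 6 GC boxes and 47 CG dinucleotides, more than 98.6% of 32851 windows of the same length. The downstream Dab1 window held 46 CG dinucleotides and 1 GC box, and the upstream one 12 and none. A GC box occurs in 35.7% of all windows. Of the other motifs searched on both strands, overlaps allowed, none occurred in these 3 windows: CAGCTG (16.3% of all windows), TAATTA (5.29%), CATTGT (12.6%), GTAAACA (3.65%) and TATAAA (13.6%). A TAATTA and a CATTGT match occurred in the first of 2 Vldlr windows, which had 8 CG dinucleotides. A CATTGT match also occurred in the first of 3 Lrp8 windows, which had 21, and the second Vldlr window held a CAGCTG and a GC box. These matches describe letters in a window and not sites in use.

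The ligand gene was lowest in the converted cells. Reln stood at 6.44, 6.55 and 5.10 CPM in MEF replicates 1 to 3, at 0.990, 0.645 and 0.969 CPM in iGABA replicates 4 to 6, and at 44.4, 48.9 and 26.6 CPM in GAD67 replicates 7 to 9. No group overlapped another, and every iGABA library lay below every fibroblast library. The converted cells did not approach the interneuron level of Reelin transcript but stood on the far side of the fibroblast level. In raw reads this was 98 counts over the 3 iGABA libraries against 544 in MEF and 4524 in GAD67.

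Reln fell 6.97-fold from MEF to iGABA (log2 fold change -2.80, SE 0.29, edgeR quasi-likelihood adjusted p = 1.11e-06). GAD67 cells held 6.645-fold more than MEF (log2 2.73, SE 0.21, edgeR adjusted p = 3.37e-08). The gap between iGABA and GAD67 was 46.3-fold (95% interval 31.2 to 68.7, edgeR adjusted p = 3.69e-10), and 5.02% of tested genes differed more between these groups in either direction.

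Both receptors were read abundantly in every library, and they changed unequally. Lrp8, which encodes ApoER2, stood at 38.45, 40.4 and 37.8 CPM in MEF, 162, 161 and 159.5 CPM in iGABA, and 465, 459 and 444 CPM in GAD67 libraries. Its groups were widely apart, with iGABA between the other two. Lrp8 rose 4.14-fold from MEF to iGABA (log2 2.05, SE 0.05, edgeR adjusted p = 7.21e-13). It remained 2.83-fold below GAD67 (log2 -1.50, SE 0.05, edgeR adjusted p = 8.46e-12), and GAD67 stood 11.7-fold above MEF (edgeR adjusted p = 3.76e-15).

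Vldlr, the other receptor gene, stood at 91.5, 99.3 and 101.7 CPM in MEF, 72.6, 73.2 and 70.4 CPM in iGABA, and 172, 169.9 and 168.9 CPM in GAD67 libraries. The iGABA libraries were again the lowest, with no overlap, but within a narrow range of levels. Vldlr fell 1.35-fold from MEF to iGABA (log2 -0.44, SE 0.05, edgeR adjusted p = 5.01e-06). Scaled by library size alone, that difference was -0.02 on the log2 scale and was not called (edgeR adjusted p = 0.6995, where the other alternatives ran from -0.48 to -0.41). GAD67 cells held 1.75-fold more Vldlr than MEF (edgeR adjusted p = 6.52e-09) and 2.36-fold more than iGABA (edgeR adjusted p = 1.25e-10).

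**Figure D1:**
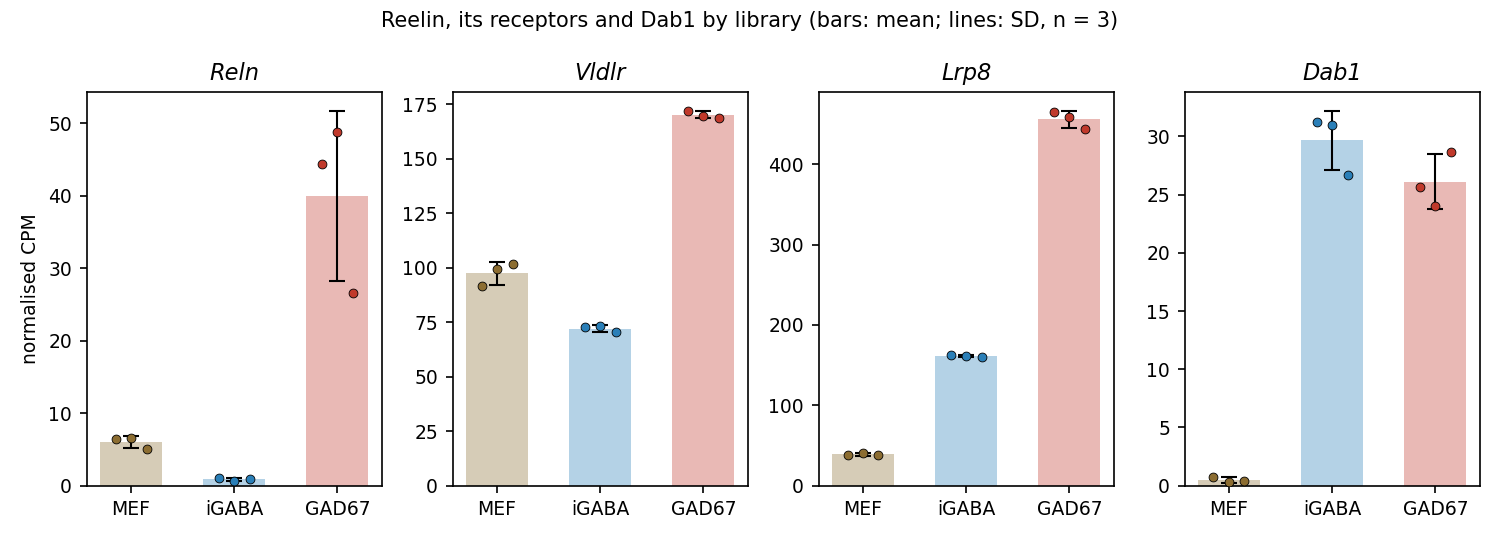
Normalised CPM of Reln, Vldlr, Lrp8 and Dab1 (y axis, each panel from 0) in the MEF, iGABA and GAD67 groups (x axis), with points for libraries, bars for means and lines for SD (n = 3). Reln and Vldlr are lowest in iGABA libraries, Lrp8 is intermediate there, and Dab1 overlaps between iGABA and GAD67.

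Dab1, the adaptor that both receptors need to pass on the signal, followed another pattern. It stood at 0.769, 0.329 and 0.393 CPM in MEF, which was 21, 10 and 13 reads. The iGABA libraries held 31.3, 30.98 and 26.7 CPM and the GAD67 libraries 25.65, 24.02 and 28.7 CPM. Fibroblasts were nearly without Dab1 transcript, and the ranges of converted cells and interneurons overlapped.

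Dab1 rose 60.7-fold from MEF to iGABA (log2 5.92, SE 0.19, edgeR adjusted p = 5.93e-12), a change exceeded by 5.78% of tested genes. It was 53.4-fold higher in GAD67 than in MEF (log2 5.74, SE 0.19, edgeR adjusted p = 4.61e-12). Between iGABA and GAD67 the log2 difference was 0.185 (95% interval -0.06 to 0.43, edgeR adjusted p = 0.146), which does not show that the levels are alike. That difference was called higher in iGABA with library size alone (log2 0.38, edgeR adjusted p = 0.00789) and without GAD67 replicate 9 (log2 0.25, edgeR adjusted p = 0.0356).

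In all, 2 of the 4 genes rose and 2 fell from MEF to iGABA, where 81.9% of all tested genes were called (edgeR, adjusted p under 0.05), 42.1% higher and 39.7% lower. All 4 were higher in GAD67 than in MEF, where 86.9% of tested genes were called, 43.1% higher and 43.8% lower. Reln, Vldlr and Lrp8 were lower in iGABA than in GAD67, where 80.6% were called, 41.3% higher and 39.3% lower. At such backgrounds a call alone does not single out a gene, and the sizes above carry the description. These comparisons share groups and are not independent of each other.

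Per kilobase of counted exon, the order of the genes differed between cell types. In MEF cells Vldlr led at 9.69 ± 0.534 CPM per kilobase, followed by Lrp8 at 3.70 ± 0.129, Reln at 0.304 ± 0.0406 and Dab1 at 0.0628 ± 0.0301 (SD, n = 3). In iGABA cells Lrp8 led at 15.3 ± 0.118 CPM per kilobase, then Vldlr at 7.16 ± 0.148, Dab1 at 3.75 ± 0.323 and Reln at 0.0438 ± 0.00975. In GAD67 cells the order was the same as in iGABA, with Lrp8 at 43.4 ± 0.996, Vldlr at 16.9 ± 0.1595, Dab1 at 3.30 ± 0.300 and Reln at 2.015 ± 0.594 CPM per kilobase. Neighbours in each order did not overlap between libraries. With the longest coding transcript of GENCODE vM21 as length the orders were unchanged.

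**Figure D2:**
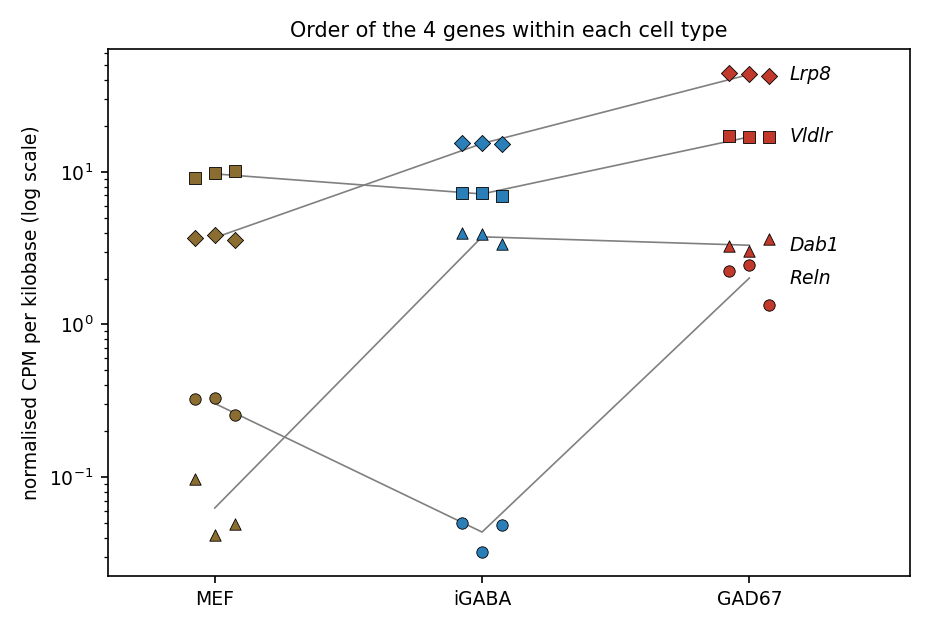
Normalised CPM per kilobase of counted exon (log y axis) of the 4 genes in each group (x axis), with a point per library, a marker shape per gene and grey lines joining group means. The lines of Vldlr and Lrp8 cross between MEF and iGABA, as do those of Reln and Dab1.

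Within a library, the ratio of the receptors does not depend on scaling between libraries. Lrp8 over Vldlr, per kilobase, was 0.4025, 0.390 and 0.356 in MEF, 2.14, 2.11 and 2.17 in iGABA, and 2.59, 2.59 and 2.52 in GAD67 libraries. ApoER2 transcripts were therefore the minority of the pair in fibroblasts, at 27.7% ± 1.27, and the majority in iGABA cells, at 68.1% ± 0.3185, and in GAD67 cells, at 71.9% ± 0.311 (SD, n = 3). The 2 receptors together came to 13.4 ± 0.556 CPM per kilobase in MEF, 22.5 ± 0.256 in iGABA and 60.3 ± 1.14 in GAD67 cells. No test is given for this ratio, since an exact permutation test of 3 against 3 libraries cannot go below p = 0.10.

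Ligand and adaptor stood in opposite proportion in fibroblasts and converted cells. Per kilobase, Reln over Dab1 was 3.34 to 7.93 in MEF, 0.00830 to 0.0145 in iGABA and 0.370 to 0.811 in GAD67 libraries. Transcripts of the receiving side, Lrp8, Vldlr and Dab1, were read in iGABA libraries beside little Reelin transcript. Of these, Vldlr was lower there than in MEF or GAD67 libraries with TMM scaling. Neither protein nor single cells were measured.

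Cajal-Retzius cells and interneuron subtypes are the known cortical sources of Reelin, so their markers were read beside Reln. Of 8 Cajal-Retzius markers, Cacna2d2 led in GAD67 cells at a mean of 56.7 CPM and Ndnf followed at 1.66 CPM. Lhx1 was lowest at 0.104 CPM. Chosen after their values were seen because they define the type, Trp73 lay at 0.398 to 0.706 CPM and Lhx5 at 0.128 to 0.226 CPM in these libraries. In iGABA libraries Trp73 lay at 0.502 to 0.792 CPM and Lhx5, higher than in GAD67, at 3.34 to 4.25 CPM. Their MEF means were 0.0445 and 0 CPM. The list summed to 59.9 to 60.9 CPM in GAD67, 192 to 203.5 CPM in iGABA and 103.9 to 113 CPM in MEF libraries, with 3 or 4 markers at 0 in each MEF library and none at 0 elsewhere. Different genes led the sum in MEF and in iGABA cells. Cacna2d2, a calcium channel subunit, made up 147.8 CPM of it in iGABA cells against 2.72 CPM in MEF, while Ndnf made up 64.4 CPM in MEF against 0.405 CPM in iGABA cells. Ebf3 stood at 34.65 CPM in MEF and 37.4 CPM in iGABA cells.

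Reln was the least even of the 4 genes among GAD67 libraries. Its coefficient of variation there was 29.5%, against 0.943% for Vldlr, 2.30% for Lrp8 and 9.08% for Dab1, and GAD67 replicate 9 was the low library. Without that library the GAD67 mean was 46.6 ± 3.14 CPM (SD, n = 2) in place of 40.0 ± 11.8 (SD, n = 3), and the log2 difference from MEF was 2.97 in place of 2.73. Of the 10 markers of interneuron subtypes that are known to contain Reelin-rich cells, 3 were also lowest in replicate 9 and the other 7 were not. Chosen after the values were seen, somatostatin (Sst) stood at 27.97, 34.9 and 10.2 CPM in GAD67 replicates 7 to 9, and neuropeptide Y (Npy) at 29.0, 35.6 and 16.6 CPM. The most abundant markers, Adarb2 and Nr2f1, both linked to interneurons of the caudal ganglionic eminence, stood at 241, 205 and 237.5 CPM and at 187, 159.7 and 223 CPM. Lamp5 was lowest of the list at 0.141 CPM, near the limit of detection.

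Markers of other cells were also uneven there. Endothelial markers, led by Cldn5 and Pecam1, summed to 15.2, 9.28 and 28.5 CPM and glutamatergic markers, led by Neurod2 and Neurod6, to 50.6, 41.4 and 67.6 CPM in GAD67 replicates 7 to 9. Both sums were highest in the library with the lowest Reln, and their part in the Reln values was not tested. The lymphatic endothelial marker Lyve1 had no count in any GAD67 library.

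**Figure D3:**
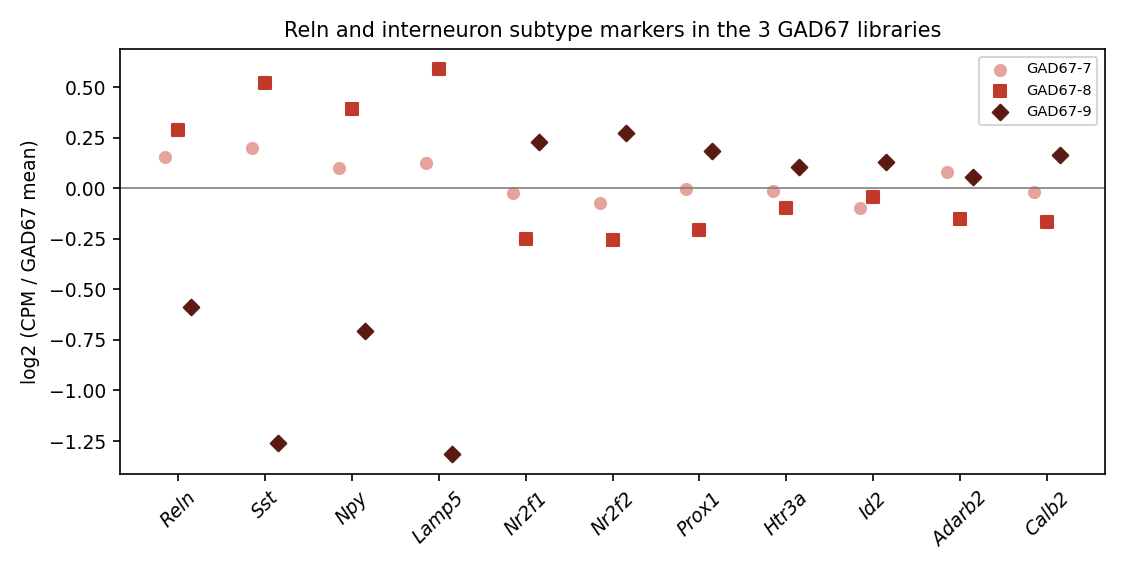
Log2 of CPM over the GAD67 group mean (y axis) for Reln and the 10 interneuron subtype markers (x axis) in the 3 GAD67 libraries, a marker shape per library. Replicate 9 lies lowest for Reln, Sst, Npy and Lamp5, and highest for 6 of the other 7 markers.

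In the unsorted MEF cultures, markers of other cells stood beside the Reln level of 5.10 to 6.55 CPM. Macrophage markers, led by Mrc1 and C1qb, summed to 190 to 201 CPM in MEF, at most 0.445 CPM in iGABA and at most 1.95 CPM in GAD67 libraries. Endothelial markers summed to 5.64 to 7.60 CPM in MEF and at most 0.569 CPM in iGABA libraries. The MEF sum came almost wholly from the growth factor receptor gene Flt4, at a mean of 5.94 CPM. The other 5 endothelial markers were near or at 0 in MEF, with Cdh5 at 0.321, Pecam1 at 0.243, Lyve1 at 0.0598, Tie1 at 0.0311 and Cldn5 at 0 CPM. The part of macrophages in the fall of Reln was not tested. In iGABA cells the subtype markers Htr3a and Id2 led at means of 355 and 198 CPM, Sst had at most 1 read in a library, and Npy stood at 9.94 to 11.3 CPM. Id2 also led that list in MEF, at 82.0 CPM. Of the 9 tested subtype markers, only Htr3a and Id2 were called higher in iGABA than in GAD67, and 7 were called lower (edgeR). There 80.6% of all tested genes were called. Adarb2 stood at 0.131 CPM in iGABA against 228 CPM in GAD67 cells.

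The other genes of the pathway were read from 5 lists with 72 members, all of which passed the filter. From MEF to iGABA 26 rose, 42 fell and 4 did not pass (edgeR, 94.4% called against 81.9% of all tested genes), with a median log2 fold change of -0.44 against 0.05 over all genes. Scaled by library size only, 34 were called higher and 31 lower, and the median of all genes moved to 0.46. Between GAD67 and MEF 35 were higher, 33 lower and 4 did not pass, with a median of 0.09 against 0.00. There 94.4% were called, against 86.9% of all tested genes. Between iGABA and GAD67 21 were higher, 39 lower and 12 did not pass, with a median of -0.335 against 0.02. There 83.3% were called, against 80.6% of all tested genes. The counts of single lists below are to be read beside these shares, and beside 42.1% higher and 39.7% lower of all tested genes from MEF to iGABA. Small differences from MEF hold relative to TMM scaling.

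Among 19 kinases and adaptors that act with Dab1, 8 rose, 10 fell and 1 did not pass from MEF to iGABA, and 12 were higher and 7 lower in GAD67 than in MEF. Scaled by library size alone, the list turned to 10 higher, 5 lower and 4 not passed from MEF to iGABA, so its balance depends on the scaling. The kinase Fyn, which phosphorylates Dab1, went from a mean of 95.5 CPM in MEF to 119.9 in iGABA and 390 in GAD67 cells, called in each comparison. Its relative Src stood at 109, 141 and 273 CPM in the same order and was called likewise. Yes1, another Src-family kinase, had the largest fall in iGABA cells (log2 -1.54, SE 0.07, edgeR adjusted p = 1.28e-10). Of the adaptors that bind phosphorylated Dab1, Crkl rose (log2 0.42, edgeR adjusted p = 6.08e-05) and Crk fell (log2 -0.50, edgeR adjusted p = 4.05e-06), a call lost with library size alone (log2 -0.09, edgeR adjusted p = 0.144). Rapgef1, the exchange factor that Crk brings to Rap1, rose by 0.42 on the log2 scale from MEF to iGABA and was 1.35 higher in GAD67 than in MEF. Rap1b itself was lower in both, by log2 differences of -0.67 and -1.82. Dab2ip, a Ras GTPase-activating protein that binds Dab1, had the largest rise of the list in iGABA cells (log2 1.185, edgeR adjusted p = 4.84e-09).

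The 10 genes of Dab1 turnover and receptor trafficking divided into 3 that rose, 6 that fell and 1 that was not called from MEF to iGABA. This balance turned as well with library size alone, to 6 higher, 3 lower and 1 not passed. Socs7 and Cul5, parts of the ubiquitin ligase that removes activated Dab1, both rose. Rnf7, another part of that ligase and chosen after the values were seen, fell. Rnf7 went from 51.0 CPM in MEF to 28.5 in iGABA and 33.2 in GAD67 cells. Its fall from MEF to iGABA was also called with library size alone (edgeR, log2 -0.42). Socs7 went from 36.4 ± 0.987 CPM in MEF to 96.8 ± 3.96 in iGABA and 190.4 ± 1.04 in GAD67 cells (SD, n = 3), and Cul5 from 74.95 CPM in MEF to 119.3 in iGABA and 123.2 in GAD67 cells. Mylip, a ubiquitin ligase that degrades lipoprotein receptors including both Reelin receptors, fell from 129 ± 1.81 to 6.70 ± 1.06 CPM in iGABA and stood at 7.64 ± 1.68 CPM in GAD67 cells. Mylip did not pass between iGABA and GAD67 (edgeR adjusted p = 0.241). Socs6, a relative of Socs7, was higher in iGABA than in GAD67 (log2 0.76, edgeR adjusted p = 1.09e-06).

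**Figure D4:**
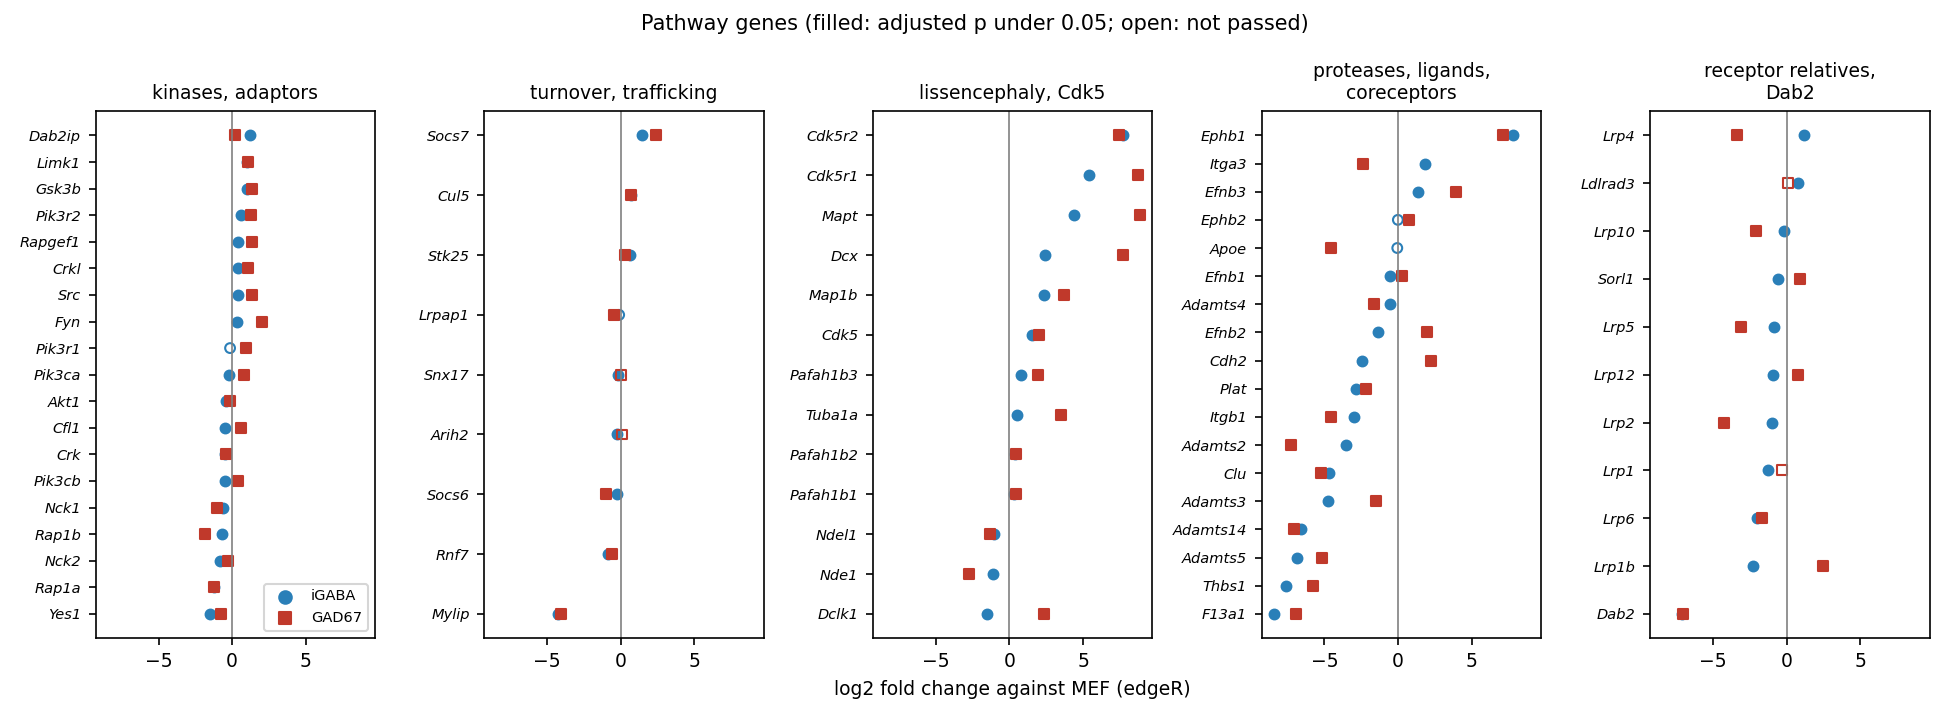
Log2 fold change against MEF (x axis, edgeR) of 70 genes of the 5 pathway lists (rows, a panel per list), for iGABA as circles and GAD67 as squares, filled where the adjusted p was under 0.05. Mylip and Dab2 lie far to the left in both, and Cdh2, Dclk1, Efnb2 and Lrp1b lie left of 0 in iGABA and right of 0 in GAD67.

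Genes of the lissencephaly and Cdk5 pathway, which steer neuronal migration alongside Reelin, rose in 10 and fell in 3 of 13 cases from MEF to iGABA. Pafah1b1, which encodes the dynein regulator LIS1, rose from 304 CPM in MEF to 379 in iGABA and stood at 413 in GAD67 cells, which did not pass against iGABA (edgeR adjusted p = 0.0665). Cdk5 rose from 25.0 to 71.2 CPM and stood at 100.7 CPM in GAD67 cells. Its neuronal activators differed from each other. Cdk5r1 went from 2.75 to 117 CPM and stood at 1185 CPM in GAD67 cells, while Cdk5r2 went from 0.125 to 27.9 CPM and stood at 23.7 CPM. The microtubule proteins of migrating and mature neurons were further apart. Doublecortin (Dcx) stood at 15.1, 82.5 and 3215 CPM and tau (Mapt) at 2.34, 47.55 and 1074 CPM in MEF, iGABA and GAD67 cells. Dclk1, the doublecortin-like kinase, fell from MEF to iGABA (log2 -1.54, SE 0.06) and was higher in GAD67 than in MEF (log2 2.32), and Nde1 was lower in both.

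Of 18 proteases, other ligands and coreceptors, 3 rose, 13 fell and 2 did not pass from MEF to iGABA, and 6 were higher and 12 lower in GAD67 than in MEF. Adamts3 and Adamts2, proteases known to cleave and inactivate Reelin, fell from 107 to 4.01 CPM and from 133.5 to 11.5 CPM. In GAD67 cells Adamts3 stood at 37.1 CPM and Adamts2 at 0.855 CPM, so their order was reversed between the neuron-like groups. Apoe, a lipid carrier that binds both receptors, stood at 345.6 ± 21.15 CPM in MEF and 333 ± 0.854 CPM in iGABA cells and did not pass (edgeR adjusted p = 0.584). Apoe was called higher in iGABA with library size alone (log2 0.36, edgeR adjusted p = 0.00302). In GAD67 cells Apoe stood at 14.6 ± 2.665 CPM. Itga3, an integrin subunit reported to bind Reelin, rose from 40.8 to 145 CPM and was 8.00 CPM in GAD67 cells. Its partner subunit Itgb1, chosen after the values were seen, fell from 2382 to 299.7 CPM and was 103 CPM in GAD67 cells. Cdh2, the neuronal cadherin reached through Rap1, went the other way from Itga3, with 74.9, 13.9 and 345 CPM in MEF, iGABA and GAD67 cells. Ephb1 rose most, from 0.448 to 101.7 CPM. F13a1, a macrophage-associated transglutaminase, had 920 counts in MEF and 3 in iGABA libraries, a ratio of 386 (95% counting interval 132 to 1874).

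Among 12 relatives of the receptors, Dab2 included, 2 rose and 10 fell from MEF to iGABA, and 3 were higher, 7 lower and 2 did not pass in GAD67 against MEF. Dab2, the endocytic adaptor related to Dab1, fell from 274 ± 4.55 to 2.06 ± 0.6805 CPM in iGABA and stood at 2.08 ± 0.554 CPM in GAD67 cells. Dab1 was under 1 CPM where Dab2 was high. It stood at 29.65 CPM in iGABA and 26.1 CPM in GAD67 cells, where Dab2 was low. The MEF cultures were unsorted and held macrophage markers, whose part in the Dab2 level was not tested. Lrp1, the large endocytic receptor, fell from 881 ± 248 to 361 ± 9.07 CPM in iGABA, and stood at 716 ± 76.0 CPM in GAD67 cells, which did not pass against MEF (edgeR adjusted p = 0.0915). Lrp4 rose 1.15 on the log2 scale in iGABA and was lower in GAD67 than in MEF (log2 -3.39). Lrp1b, at 0.0942 CPM in iGABA against 0.482 in MEF and 2.70 in GAD67 cells, was low throughout.

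The genes whose profiles lay closest to each of the 4 were found by the root mean square difference of gene-centred log2 CPM over 9 libraries, among 15197 genes. Reln was nearest to Aim2 (0.23), a cytosolic DNA sensor, Ntrk3 (0.24), the neurotrophin-3 receptor, and Gpr161 (0.24), a receptor of the primary cilium. Vldlr was nearest to Bod1 (0.04), Eif1ad (0.05) and Slc7a6 (0.05). Lrp8 was nearest to the lipid kinase gene Pik3c2b (0.03), the glucosylceramidase gene Gba2 (0.06) and the myelin and neuronal membrane protein gene Gpm6b (0.09). Dab1 was nearest to Rimbp3 (0.24), Carmil2 (0.25) and Rnf208 (0.28). Among the 4 themselves, Vldlr and Lrp8 were closest at 1.24 and Reln and Dab1 farthest at 3.57. The distances rest mostly on differences between 3 group means, which many genes share.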

How the data were processed

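RNA of 9 mouse samples was sequenced from strand-marked libraries. The deposited table held raw read counts per gene, and the authors' tools, per the submitters' processing notes, were BWA 0.7.2, featureCounts and DESeq 1.10.1 with mm10. Which tool did what, the gene annotation used and whether counting used strand were not given in the sources used here. The table also gives a gene length, the other unit used, per the file headers. Symbols came from a table of gene identifiers and names and matched 35449 of 37224 genes, and transcript lengths for an alternative came from GENCODE vM21.

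The count analysis ran in R 4.3.3. Genes were kept by edgeR's filterByExpr (minimum count 10, minimum total 15), libraries were scaled by TMM, and all 9 libraries entered 1 quasi-likelihood fit (edgeR 4.0.16) with Benjamini-Hochberg adjustment over 18085 genes. Calls used an adjusted p under 0.05. The test was run on simulated data with 200 changed genes and all others unchanged. Most genes were called in the real data, so the simulation does not show how TMM scaling behaves there. Likeness used log2 CPM with a prior count of 2.

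The members and lists were chosen with earlier results of these data known. Named genes were the 4 members, the largest called rise and fall of each list and comparison, a fixed set of pathway genes, the 2 highest and the lowest marker in a group, and the 3 nearest genes by profile. Alternatives were other scalings, no filter, DESeq2 1.42.0, fits of only the groups compared and leaving out each library. Protein sequences were not used here. Some genes of the lists are counted but not reported here by name, and 70 of 72 are plotted.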

Additional observations from a re-analysis of the deposited data

How the results depend on the processing

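The 12 tests of Reln, Vldlr, Lrp8 and Dab1 were repeated under 14 alternatives each, and 165 of 168 values kept their direction and their side of the threshold in the edgeR or DESeq2 test. The exceptions were Vldlr in iGABA against MEF with library size alone (log2 -0.019), and Dab1 in iGABA against GAD67 with library size alone (log2 0.38) and without GAD67 replicate 9. Leaving out 1 library at a time, the Dab1 difference ran from 0.13 to 0.26. Over the alternatives, called genes ran from 14346 to 15634 in iGABA against MEF and from 15190 to 16954 in GAD67 against MEF. They ran from 14069 to 15390 in iGABA against GAD67. Called pathway genes ran from 65 to 69, 67 to 69 and 59 to 63 in the same order. The number of genes tested differed between alternatives. With library size alone, genes called from MEF to iGABA shifted from 7618 higher and 7188 lower to 9941 higher and 5283 lower. The log2 ratio of Vldlr over Lrp8 was 1.39 in MEF, -1.10 in iGABA and -1.36 in GAD67 cells. It was -1.16 in iGABA and -1.42 in GAD67 with no length correction. With the longest coding transcript, chosen after seeing the data, it was 1.06, -1.43 and -1.69. Library size alone turned the balance of rises and falls from MEF to iGABA in 2 of the 5 pathway lists, the kinases and adaptors and the turnover genes. No paired analysis was made, because the replicate numbers run on from group to group and do not say whether libraries share an origin. Depth limits Reln in iGABA (27 to 40 reads a library) and Dab1 in MEF (10 to 21 reads). Reads do not separate isoforms, so splice forms of Lrp8 and Dab1 were not measured.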
